A study of Mus musculus with 36 samples.

Results

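The genes described here were 9 genes of macroautophagy, the pathway by which a cell encloses part of its own cytoplasm in a double membrane and delivers it to the lysosome. They were Ulk1, Map1lc3a, Map1lc3b, Gabarapl1, Sqstm1, Atg14, Becn1, Tfeb and Wipi1, taken by their symbols from the expression tables and followed over 6 time points in both exposures. All 9 were found among the 24066 symbols analysed, and all 9 passed the filter on low values (a mean of 0.1 FPKM or more) that left 13215 genes to test. Livers came from male wild-type C57BL/6JRj mice aged 16 weeks, kept 5 to a cage on chow and water ad libitum under 12 h of light and 12 h of dark, with lights on at zeitgeber time 0 (ZT0). The mice of the intermittent hypoxia (IH) group breathed 60 cycles of hypoxia and reoxygenation per h, down to 5% and back to 21% inspired oxygen, from ZT0 to ZT8 daily for 4 weeks. Control mice went through air to air cycles in the same way. Polyadenylated RNA was sequenced from 3 mice at each of ZT0, ZT4, ZT8, ZT12, ZT16 and ZT20 in each exposure, which gave 36 libraries, and by the study each library was from a separate animal. The IH exposure fell entirely within the light phase, when mice rest, so values at ZT4 and ZT8 were sampled within or at the end of the daily hypoxia.

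Autophagy starts when the ULK1 kinase complex is activated under nutrient shortage and phosphorylates the class III phosphatidylinositol 3-kinase complex, which contains Beclin 1 and ATG14. The lipid this complex makes recruits WIPI proteins, and the conjugation machinery then attaches the ATG8 proteins (the LC3 and GABARAP families) to the growing membrane, where receptors such as p62 (the product of Sqstm1) tether cargo. TFEB is a transcription factor of lysosome and autophagy genes. In the liver, autophagy supplies amino acids, lipids and glucose precursors between meals, and several of its genes are known to follow the time of day.

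Values came as FPKM, the number of fragments scaled to transcript length and library size, with no counts. In genes with a single annotated transcript longer than 2000 bases, low values clustered near whole multiples of the worth of 1 fragment, with 31 to 61 genes per library within 8% of 1 fragment and 0 to 6 within 8% of the midpoint to the next multiple. From this step, 1 FPKM was estimated to stand for 52.4 to 88.3 fragments per kb of transcript by library (median 67.4). The FPKM sum of control ZT12 replicate 2 was 808274, and those of the other 35 libraries ran from 561964 to 626371. That library also had the highest summed leukocyte markers (205 FPKM, against 13.2 or less in the other 35 libraries of both exposures) and the highest Kupffer cell markers (180.2 FPKM). The acute phase gene Saa1 was above 10000 FPKM in 3 libraries, which were IH ZT0 replicate 2, control ZT12 replicate 2 and control ZT16 replicate 3. Hepatocyte markers such as Alb and Ttr summed to between 53191 and 91890 FPKM in every library. In whole liver, fewer cells of a type and less RNA per cell cannot be told apart.

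The members spanned a wide range of levels. FPKM is scaled to transcript length, so levels can be set beside each other between genes. Over the 36 libraries, Sqstm1 had the highest mean (182 ± 34.5 FPKM, SD, n = 36), followed by Gabarapl1 (137 ± 58.6), Map1lc3b (60.0 ± 9.14), Map1lc3a (30.7 ± 5.52), Becn1 (22.5 ± 1.65), Ulk1 (14.8 ± 5.69), Wipi1 (5.47 ± 1.80), Atg14 (4.11 ± 0.857) and Tfeb (4.09 ± 0.829). Gabarapl1 was above Map1lc3b, Map1lc3b above Map1lc3a and Ulk1 above Wipi1 in 36 of 36 libraries. Sqstm1 was above Gabarapl1 in 27 of 36, and Atg14 above Tfeb in 19 of 36, so the lowest pair did not differ beyond their spread. Becn1 varied least among the members, with a coefficient of variation of 7.32% in control and 7.47% in IH, whereas Gabarapl1 varied most in IH (48.4%).

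Ulk1, on chromosome 5 (mm10, 110784488 to 110810097, minus strand), encodes the kinase that starts autophagy. Gabarapl1, on chromosome 6 (129533160 to 129542346, plus strand), encodes an ATG8 protein that binds cargo receptors and the ULK complex. Sqstm1, on chromosome 11 (50199366 to 50210827, minus strand), encodes a receptor for ubiquitinated cargo that is itself degraded by autophagy. These were the 3 members rhythmic in both exposures, and the bases before their start sites are shown because they share a daily rhythm but not its time. The sequences are from RefSeq (GRCm38.p6), run 5′ to 3′ on the strand of the gene, and end where the GENCODE exons of the gene begin. Capitals mark each GC box (GGGCGG or its reverse complement CCGCCC), a binding site of SP1-type factors.
Ulk1, chr5:110810098-110810331, minus strand: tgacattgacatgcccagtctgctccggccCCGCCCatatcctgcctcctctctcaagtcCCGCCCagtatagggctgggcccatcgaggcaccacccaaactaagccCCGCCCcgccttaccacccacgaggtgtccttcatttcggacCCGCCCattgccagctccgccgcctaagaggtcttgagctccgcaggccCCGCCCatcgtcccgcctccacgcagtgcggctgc
Gabarapl1, chr6:129532942-129533159, plus strand: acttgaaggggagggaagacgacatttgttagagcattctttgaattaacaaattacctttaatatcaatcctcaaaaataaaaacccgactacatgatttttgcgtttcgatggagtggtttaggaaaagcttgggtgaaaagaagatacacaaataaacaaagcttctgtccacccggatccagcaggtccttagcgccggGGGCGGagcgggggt
Sqstm1, chr11:50210828-50211070, minus strand: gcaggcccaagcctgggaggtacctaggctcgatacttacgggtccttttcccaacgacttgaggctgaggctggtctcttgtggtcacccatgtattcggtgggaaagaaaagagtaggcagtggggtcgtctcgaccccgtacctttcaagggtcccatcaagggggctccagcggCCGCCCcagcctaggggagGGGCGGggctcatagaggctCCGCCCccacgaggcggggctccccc

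Promoters of 7 members matched the RefSeq table by symbol, Tfeb with 3 start sites, and Map1lc3a and Becn1 had no entry. On both strands of the 250 bases before each of these 9 start sites, the GC box was found in 9 of 9, against 32.7% of the 32851 promoters of the table. Unlike the sequences shown, these windows were not cut where GENCODE exons begin. In Atg14, Map1lc3b and the Tfeb window from 47737681 to 47737930, every GC box lay past the first base of a GENCODE exon of the gene. The E-box CACGTG (6.02% of all promoters), its longer form TCACGTGA bound by TFEB-type factors (0.785%), the cAMP response element TGACGTCA (1.55%) and the FOXO site GTAAACA (3.17%) were in 0 of 9. Likewise the D-box TTATGTAA (0.819% of all promoters), the hypoxia response element core ACGTG (16.6%), the ROR and REV-ERB core AGGTCA (14.0%) and the CCAAT box (33.8%) were in 0 of 9. The ACGTG core is part of the E-box and of its longer form, so these counts are not independent. A match or its absence describes the letters of this window only.

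**Figure D1:**
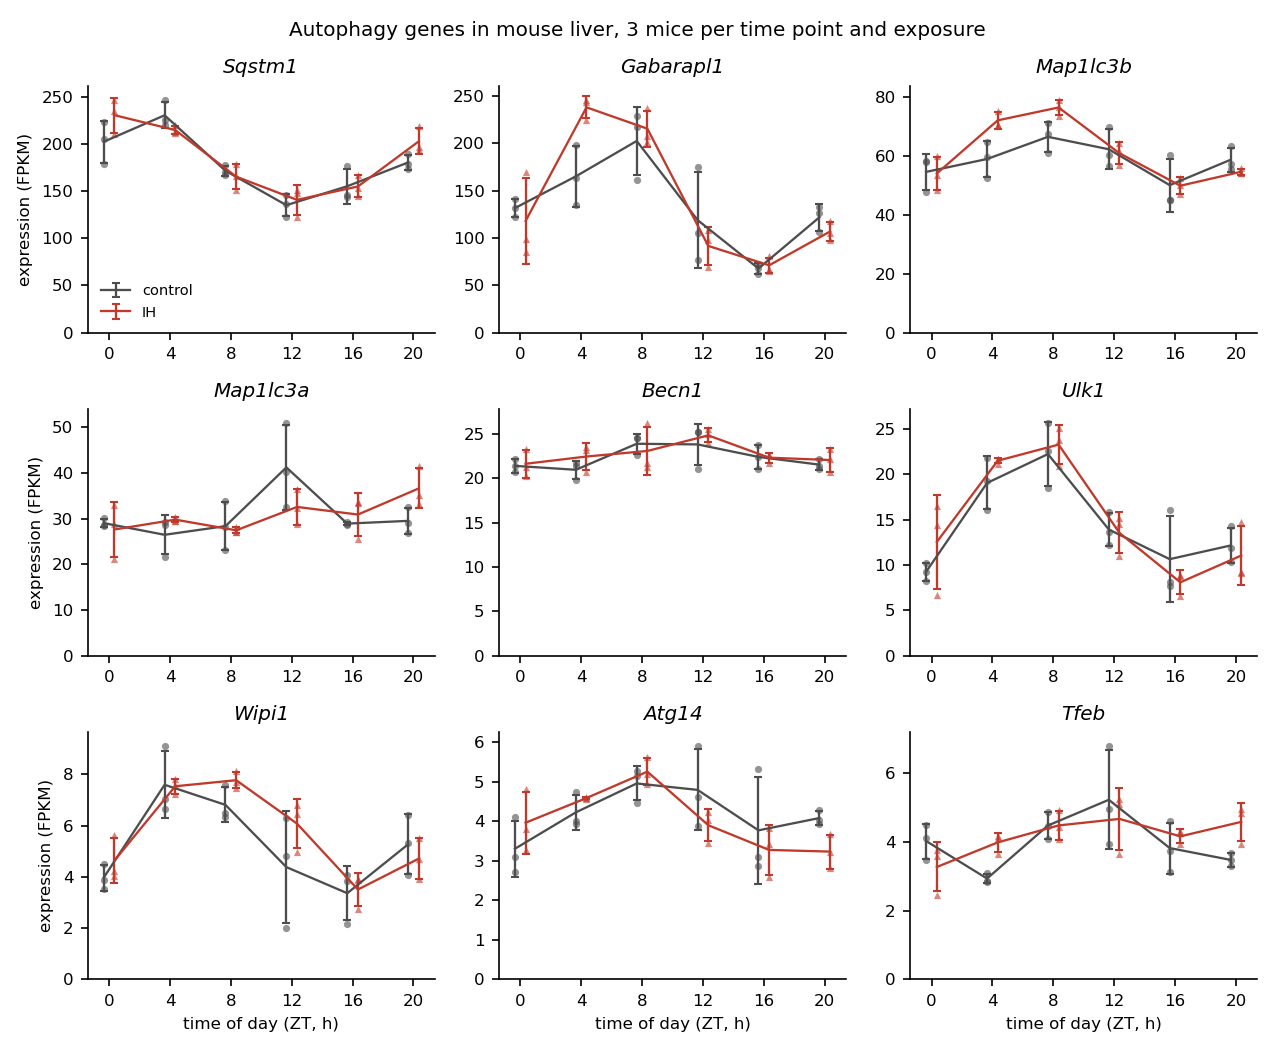
Expression of the 9 members in FPKM against the time of day (ZT, h), ordered by mean level. Points are single mice (circles, control; triangles, IH), and lines join the means of 3 mice with SD bars. In both exposures the means of Ulk1, Gabarapl1, Wipi1 and Map1lc3b were highest at ZT4 or ZT8 and lowest at ZT16 or ZT0. Sqstm1 was highest at ZT0 or ZT4 and lowest at ZT12, and Becn1 stayed between 19.8 and 26.2 FPKM.

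The first question was which members follow the time of day in the liver. Per exposure, a cosine of 24 h was fitted to log2(FPKM + 1) over its 18 libraries, and a gene was called rhythmic at a nominal P of 0.01 or less in limma's moderated F test. In control, 3 of the 9 members were rhythmic (Ulk1, Gabarapl1 and Sqstm1), where 20.0% of all genes tested were. In IH, 6 of the 9 were rhythmic (the same 3, with Map1lc3b, Atg14 and Wipi1), where 39.9% of all genes were. The 3 members rhythmic in both compare with 15.5% of all genes. Map1lc3a, Becn1 and Tfeb were not called in either exposure. The members had a median log2 amplitude of 0.19 in control and 0.29 in IH, beside 0.12 in each exposure over all genes. The median member was Tfeb in control and Map1lc3b in IH, so these medians do not give a change within a gene. All genes include low values, whose amplitudes log2(FPKM + 1) shrinks, whereas each member averaged 4.09 FPKM or more. Over 100 further genes of autophagy and the lysosome, described below, the medians were 0.17 in control and 0.16 in IH. The rhythm calls rest on the spread within each exposure, and a call in IH alone is not a difference between the exposures, which is tested further on.

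Initiation came first in the order of the pathway. Ulk1 in control mice was 10.3, 8.25 and 9.28 FPKM at ZT0, 21.8, 16.0 and 19.3 at ZT4, 22.5, 18.5 and 25.6 at ZT8, 15.9, 12.2 and 13.6 at ZT12, 8.19, 7.68 and 16.1 at ZT16, and 11.8, 10.4 and 14.2 at ZT20. In IH mice it was 6.69, 14.4 and 16.5 FPKM at ZT0, 21.6, 21.7 and 21.2 at ZT4, 20.9, 23.8 and 25.1 at ZT8, 15.1, 10.9 and 14.5 at ZT12, 6.55, 8.80 and 8.93 at ZT16, and 9.19, 9.17 and 14.8 at ZT20. In both exposures every mouse at ZT8 was above every mouse at ZT0, ZT12, ZT16 and ZT20, and the values of the exposures overlapped at each time point. The fitted maximum of Ulk1 lay at ZT7.33 ± 0.82 (SE) in control, with a peak to trough ratio of 2.03 on the fitted scale (P = 0.00078, n = 18 libraries). In IH it lay at ZT6.07 ± 0.60 with a ratio of 2.57 (P = 2.5e-05, n = 18 libraries). The highest group mean was 22.2 ± 3.56 FPKM (SD, n = 3) at ZT8 in control and 23.3 ± 2.12 at ZT8 in IH.

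The lipid kinase complex and the first effector of its product followed. Atg14, on chromosome 14 (47540893 to 47570649, minus strand), encodes the subunit that directs the complex to the site of autophagosome formation. Its level was highest at ZT8, where control had 4.95 ± 0.431 FPKM and IH 5.25 ± 0.338 (SD, n = 3). In IH its fitted maximum was at ZT6.34 ± 0.65 (SE) with a ratio of 1.47 (P = 7.5e-05, n = 18 libraries), and in control the test gave P = 0.056 (n = 18 libraries). Single control mice of Atg14 at ZT16 were far apart (3.10, 2.87 and 5.33 FPKM), and the third is 1 of the libraries with high Saa1. Becn1, on chromosome 11 (101285952 to 101302286, minus strand), encodes the scaffold of the same complex. Its group means lay between 20.9 and 23.9 FPKM in control and between 21.6 and 24.8 in IH, with P = 0.069 in control and P = 0.090 in IH (n = 18 libraries each). Under median-of-ratios scaling Becn1 was called in control (P = 0.00040, n = 18 libraries) and in IH. Wipi1, also on chromosome 11 (109573331 to 109611967, minus strand), encodes a protein that binds the lipid made by the complex. Among control mice Wipi1 was highest at ZT4 (9.09, 6.65 and 7.04 FPKM) and lowest at ZT16 (3.85, 2.14 and 4.08), and in IH highest at ZT8 (7.72, 8.12 and 7.48) and lowest at ZT16 (3.89, 3.87 and 2.74). In each exposure all mice of the highest time point were above all mice of the lowest. The cosine gave P = 0.017 in control and P = 1.6e-05 in IH (n = 18 libraries each), with fitted maxima at ZT5.00 ± 1.19 and ZT6.50 ± 0.58 (SE). Without control ZT12 replicate 2, Wipi1 and Becn1 were also called in control, which made 5 of 9 members, and Wipi1 also without control ZT20 replicate 1.

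The ATG8 proteins are the membrane-bound tags of the autophagosome, and 3 members belong to them. Gabarapl1 in control mice was 141, 122 and 131 FPKM at ZT0, 163, 198 and 134 at ZT4, 161, 229 and 217 at ZT8, 175, 76.9 and 105 at ZT12, 68.3, 62.2 and 72.8 at ZT16, and 106, 133 and 127 at ZT20. In IH mice it was 99.0, 85.1 and 170.1 FPKM at ZT0, 225, 246 and 244 at ZT4, 237, 208 and 202 at ZT8, 108, 69.0 and 97.9 at ZT12, 67.6, 80.5 and 65.3 at ZT16, and 97.4, 118 and 105 at ZT20. All IH mice at ZT4 and ZT8 were above all IH mice of the other time points. In control the ZT4 and ZT8 values overlapped those of ZT12, and the ZT4 values also overlapped those of ZT0. Gabarapl1 had the largest amplitude of the members in both exposures, with a peak to trough ratio of 2.28 in control (P = 0.00033, n = 18 libraries) and 3.13 in IH (P = 5.0e-06, n = 18 libraries), and fitted maxima at ZT4.93 ± 0.75 and ZT4.93 ± 0.53 (SE).

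Map1lc3b, on chromosome 8 (121590361 to 121598760, plus strand), encodes the LC3 protein most used as an autophagosome marker. In control mice it was 58.2, 47.7 and 58.0 FPKM at ZT0, 64.9, 59.6 and 52.5 at ZT4, 61.0, 71.1 and 67.5 at ZT8, 69.8, 60.3 and 56.8 at ZT12, 44.9, 44.9 and 60.5 at ZT16, and 55.5, 57.3 and 63.4 at ZT20. In IH mice it was 48.6, 60.1 and 53.6 FPKM at ZT0, 70.4, 70.6 and 75.4 at ZT4, 76.7, 79.1 and 73.7 at ZT8, 64.3, 56.9 and 61.7 at ZT12, 50.1, 52.7 and 47.0 at ZT16, and 55.8, 54.1 and 54.1 at ZT20. The IH values at ZT4 and ZT8 were above all control values of the same time point, and at the other 4 time points the exposures overlapped. In IH the fitted maximum was at ZT6.65 ± 0.50 (SE) with a ratio of 1.50 (P = 2.7e-06, n = 18 libraries), and in control the test gave a ratio of 1.20 (P = 0.11, n = 18 libraries). Map1lc3a, on chromosome 2 (155276297 to 155278073, plus strand), encodes a second LC3 protein and had another time course. It was highest at ZT12 in control (40.3, 50.9 and 32.5 FPKM, the value of 50.9 in the library with the high FPKM sum) and at ZT20 in IH (35.2, 41.5 and 33.1), with P = 0.10 and P = 0.16 (n = 18 libraries each).

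The 5 ATG8 genes measured were Gabarap, Gabarapl1, Gabarapl2, Map1lc3a and Map1lc3b. At ZT4 the family summed to 446 ± 51.5 FPKM (SD, n = 3) in control and 544 ± 24.3 in IH, the highest IH sum. The control sum was highest at ZT8, with 507 ± 50.8 FPKM beside 529 ± 18.8 in IH. At ZT12 the mean was higher in control, with 471 ± 57.7 FPKM beside 415 ± 30.6 in IH, but the mice overlapped (408.6 to 522.1 and 388.4 to 448.3 FPKM). The control mice at ZT12 include the library with the high FPKM sum. At ZT16 the sums were 359 ± 22.4 and 371 ± 19.6. Gabarap itself, the most abundant of the family at most time points, was not rhythmic in either exposure (P = 0.23 in control and P = 0.25 in IH, n = 18 libraries each). The share of Gabarapl1 in the sum went from 18.9 ± 0.603% at ZT16 to 39.7 ± 3.39% at ZT8 in control, and from 19.1 ± 1.19% at ZT16 to 43.7 ± 0.848% at ZT4 in IH. At ZT4 the share was between 34.1% and 39.9% in the control mice and between 43.1% and 44.7% in the IH mice, which did not overlap. At the other time points the exposures overlapped. The mean share of Gabarapl1 was higher in control at ZT0 (30.6% against 27.8%), ZT12 (25.0% against 22.0%) and ZT20 (28.8% against 26.1%). The differences in sum and in share between the exposures were not tested. The share of Map1lc3b stayed between 12.7% and 14.7% in all 12 group means.

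**Figure D2:**
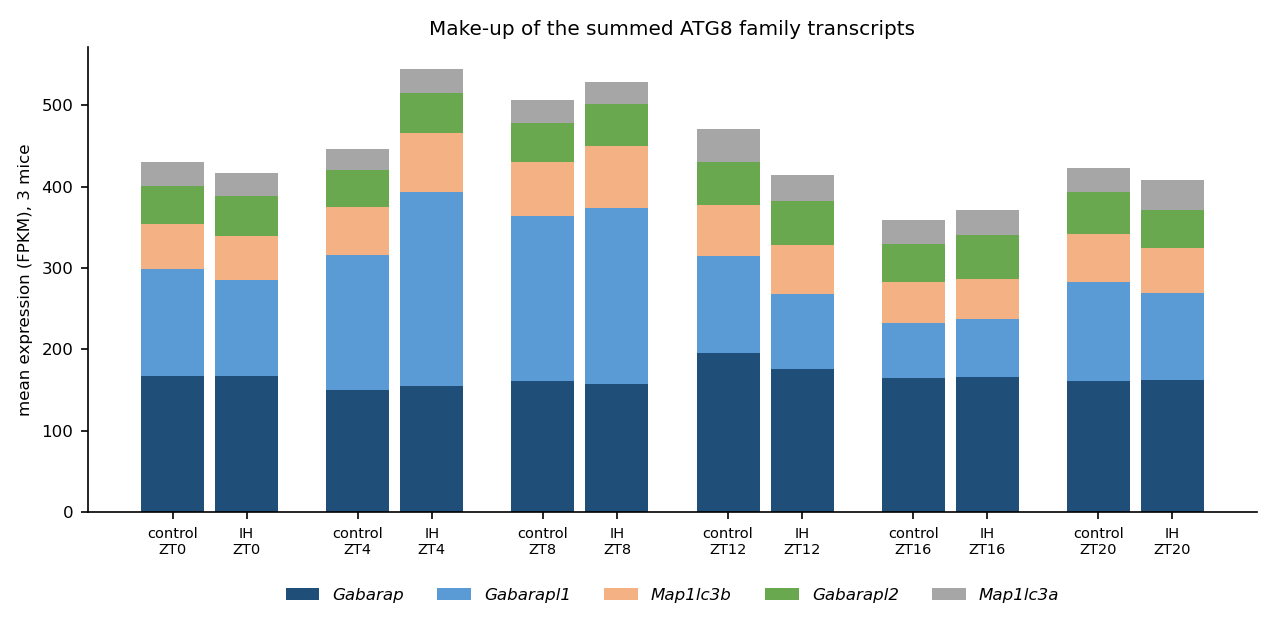
Mean FPKM of the 5 ATG8 genes, stacked, in control and IH at each time point (means of 3 mice). The stack was tallest in IH at ZT4 (544 FPKM) and shortest in control at ZT16 (359 FPKM), and the Gabarapl1 segment varied most, from 67.7 to 238 FPKM.

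Cargo was represented by Sqstm1, whose course differed in time from that of the other rhythmic members. In control mice it was 223, 178 and 205 FPKM at ZT0, 246, 225 and 219.6 at ZT4, 167, 169.7 and 177 at ZT8, 146, 122 and 137 at ZT12, 145, 143 and 176 at ZT16, and 173, 189 and 178 at ZT20. In IH mice it was 210.2, 234 and 246 FPKM at ZT0, 219, 213 and 211 at ZT4, 166, 178 and 151 at ZT8, 148, 151 and 123 at ZT12, 167, 153 and 144 at ZT16, and 218, 196 and 193 at ZT20. All mice of ZT0 and ZT4 were above all mice of ZT8 and ZT12 in both exposures. The fitted maximum lay at ZT1.72 ± 0.57 (SE) in control (P = 1.1e-05, n = 18 libraries) and at ZT0.53 ± 0.37 in IH (P = 2.6e-08, n = 18 libraries), with ratios of 1.59 and 1.67. The other 5 members called in IH had their maxima between ZT4.93 and ZT6.65. The spacing between Sqstm1 and those members was not tested.

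Tfeb, on chromosome 17 (47737030 to 47792419, plus strand), encodes the transcription factor of the set and was at the lower end of expression. Its group means lay between 2.93 and 5.23 FPKM in control and between 3.27 and 4.67 in IH, both highest at ZT12. The cosine gave P = 0.062 in control and P = 0.078 in IH (n = 18 libraries each), and Tfeb was called in control with median-of-ratios scaling, with quantile normalization and when time was taken as a factor of 6 levels in place of the cosine. Its relative Mitf was rhythmic in both exposures with maxima at ZT21.6 and ZT20.9 (P = 3.7e-05 and P = 0.00035, n = 18 libraries each), at means of 0.543 and 0.580 FPKM.

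**Figure D3:**
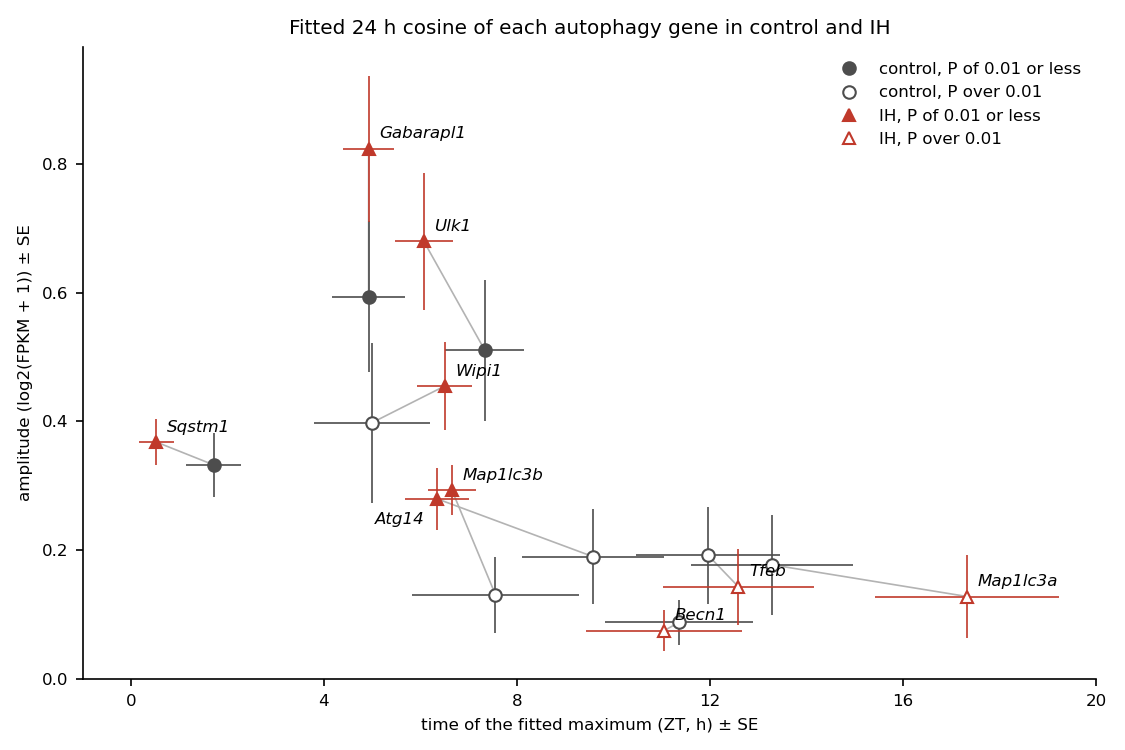
Time of the fitted maximum (ZT, h) against the amplitude of the fitted 24 h cosine (log2(FPKM + 1)), both ± SE, for each member in control (circles) and IH (triangles). Filled symbols mark P of 0.01 or less, and a grey line joins the exposures of a gene. Gabarapl1 and Ulk1 had the largest amplitudes in both exposures, Sqstm1 lay apart from the others at ZT0.53 to ZT1.72, and Map1lc3a, Becn1 and Tfeb were not called.

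The next question was whether IH changed these rhythms. In 1 fit over all 36 libraries, the interaction of exposure with the cosine and sine terms passed an adjusted p of 0.05 in 0 of the 9 members and in 0 of the 13215 genes (0% of all genes, limma with Benjamini-Hochberg adjustment). At an unadjusted P under 0.05 it was met by 0 members and 649 genes. With the time point as a factor in place of the cosine, 0 members passed as well. The smallest adjusted p of a member was 0.92. Amplitudes on the log2 scale were higher in IH by 0.23 ± 0.16 for Gabarapl1, 0.17 ± 0.15 for Ulk1 and 0.16 ± 0.07 for Map1lc3b (IH minus control, SE). Smaller differences in this direction were those of Atg14 (0.09 ± 0.09), Wipi1 (0.06 ± 0.14) and Sqstm1 (0.04 ± 0.06). Amplitudes were lower in IH by 0.05 ± 0.10 for Map1lc3a, 0.05 ± 0.10 for Tfeb and 0.01 ± 0.05 for Becn1. The share of all genes with a higher amplitude in IH is not given here. The fitted maximum moved by less than 0.01 h in Gabarapl1. It was 3.23 ± 1.61 h earlier in Atg14, 1.26 ± 1.01 h earlier in Ulk1, 1.18 ± 0.67 h earlier in Sqstm1, 1.50 ± 1.33 h later in Wipi1 and 4.04 ± 2.54 h later in Map1lc3a, none past the test. The clock genes followed each other in the same order in both exposures, each with an earlier fitted maximum in IH and none past the test. Arntl was at ZT22.2 in control and ZT21.1 in IH, Npas2 at ZT0.03 and ZT22.9, and Nr1d1 at ZT7.31 and ZT6.51. Dbp was at ZT9.51 and ZT8.42, and Per2 at ZT14.6 and ZT14.0. Whether the shifts of the members go with those of the clock genes was not tested.

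Levels over the whole day did not differ past the test in any member. With the time point as a factor, 0 of the 9 members were higher in IH, where 0.303% of all genes were, and 0 were lower, where 0.0530% were (adjusted p of 0.05, limma, n = 18 libraries per exposure). At an unadjusted P under 0.05, 0 members were higher or lower, against 1116 and 309 genes. The largest difference was that of Wipi1, which was 0.13 ± 0.09 higher in IH (log2, SE, adjusted p = 0.60), with a 95% interval from -0.05 to 0.31. The median difference of the members was 0.02, beside 0.03 for all genes. The intervals of Becn1 (-0.04 to 0.09) and Sqstm1 (-0.04 to 0.13) were the narrowest, and those of Ulk1 (-0.18 to 0.21) and Gabarapl1 (-0.20 to 0.20) the widest.

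Within and at the end of the daily hypoxia, at ZT4 and ZT8, Map1lc3b was higher in IH. Its mean was 74.3 ± 3.43 FPKM in IH and 62.8 ± 6.56 in control (SD, n = 6), and the difference was 0.25 ± 0.06 on the log2 scale (SE), or 1.19-fold (limma, adjusted p = 0.028). All 3 IH mice were above all 3 control mice at each of these time points. This was 1 of the 9 members higher in IH, where 6.05% of all genes were, and 0 of the 9 were lower, where 1.93% were. The call was lost without each of IH ZT4 replicates 1, 2 and 3, IH ZT8 replicates 1 and 2, and control ZT8 replicate 1 in turn, with differences of 0.20 to 0.27 and adjusted p up to 0.065 over the 12 fits. At an unadjusted P under 0.05, 3 members were higher and 0 lower, against 2654 and 925 of the 13215 genes. Besides Map1lc3b these were Gabarapl1, with 0.32 ± 0.12 (adjusted p = 0.11), and Tfeb, with 0.17 ± 0.07 (adjusted p = 0.16). Gabarapl1 lay between 202 and 246 FPKM in the 6 IH mice and between 134 and 229 FPKM in the 6 control mice, which overlapped. In the same 12 libraries the hepatocyte marker sum was 53834 to 70610.4 FPKM in control and 69681 to 75994 in IH, with 1 of 8 markers called higher, and the Kupffer cell marker sum was 27.5 to 65.0 and 22.7 to 41.8 with 0 of 7 called. The sum of 5 acute phase genes was 38.6 to 4475 FPKM in control and 45.0 to 130 in IH, with 0 of 5 called. Among them, Saa1 was 2357 and 2435 FPKM in control ZT4 replicates 1 and 3 and 828 in control ZT8 replicate 1. In the IH libraries of these time points Saa1 was at most 72.1 FPKM. The part of these marker and acute phase values in the difference of Map1lc3b was not tested. The median difference of the members was 0.09, beside 0.04 for all genes. Another scaling of the libraries changed the split of calls over all genes, from 799 higher and 255 lower to 460 and 460 with median-of-ratios scaling, 491 and 250 after rescaling to a common sum, and 524 and 429 with quantile normalization. Under those scalings Map1lc3b stayed 0.18 to 0.23 higher, with adjusted p of 0.025 to 0.037.

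At single time points, 0 of the 54 pairs of member and time point passed an adjusted p of 0.05, where 0.195% of all pairs of gene and time point were higher in IH and 0.129% lower (limma, 1 fit of the 12 groups). At an unadjusted P under 0.05, 5 pairs were higher in IH and 0 lower, against 5050 and 3061 of the 79290 pairs of all genes. Of these, 3 were at ZT4, where Gabarapl1 was 0.54 ± 0.23 (SE) higher (adjusted p = 0.22), Tfeb 0.34 ± 0.14 higher (adjusted p = 0.21) and Map1lc3b 0.29 ± 0.11 higher (adjusted p = 0.16). The others were Wipi1 at ZT12 (0.48 ± 0.22, adjusted p = 0.17) and Tfeb at ZT20 (0.32 ± 0.14, adjusted p = 1). Tfeb at ZT4 was 3.09, 2.87 and 2.84 FPKM in control and 3.66, 4.17 and 4.12 in IH, so the exposures did not overlap. At ZT20 control mice had 3.28, 3.47 and 3.68 FPKM and IH mice 4.96, 4.85 and 3.95, again with no overlap. In all, 8 of the 54 pairs had every IH mouse above every control mouse, where 11.7% of all pairs did, and 2 had every IH mouse below, where 5.99% did. Wipi1 at ZT12 was 6.30, 2.01 and 4.82 FPKM in control and 6.44, 4.98 and 6.81 in IH, and the value of 2.01 was from the library with the high FPKM sum.

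**Figure D4:**
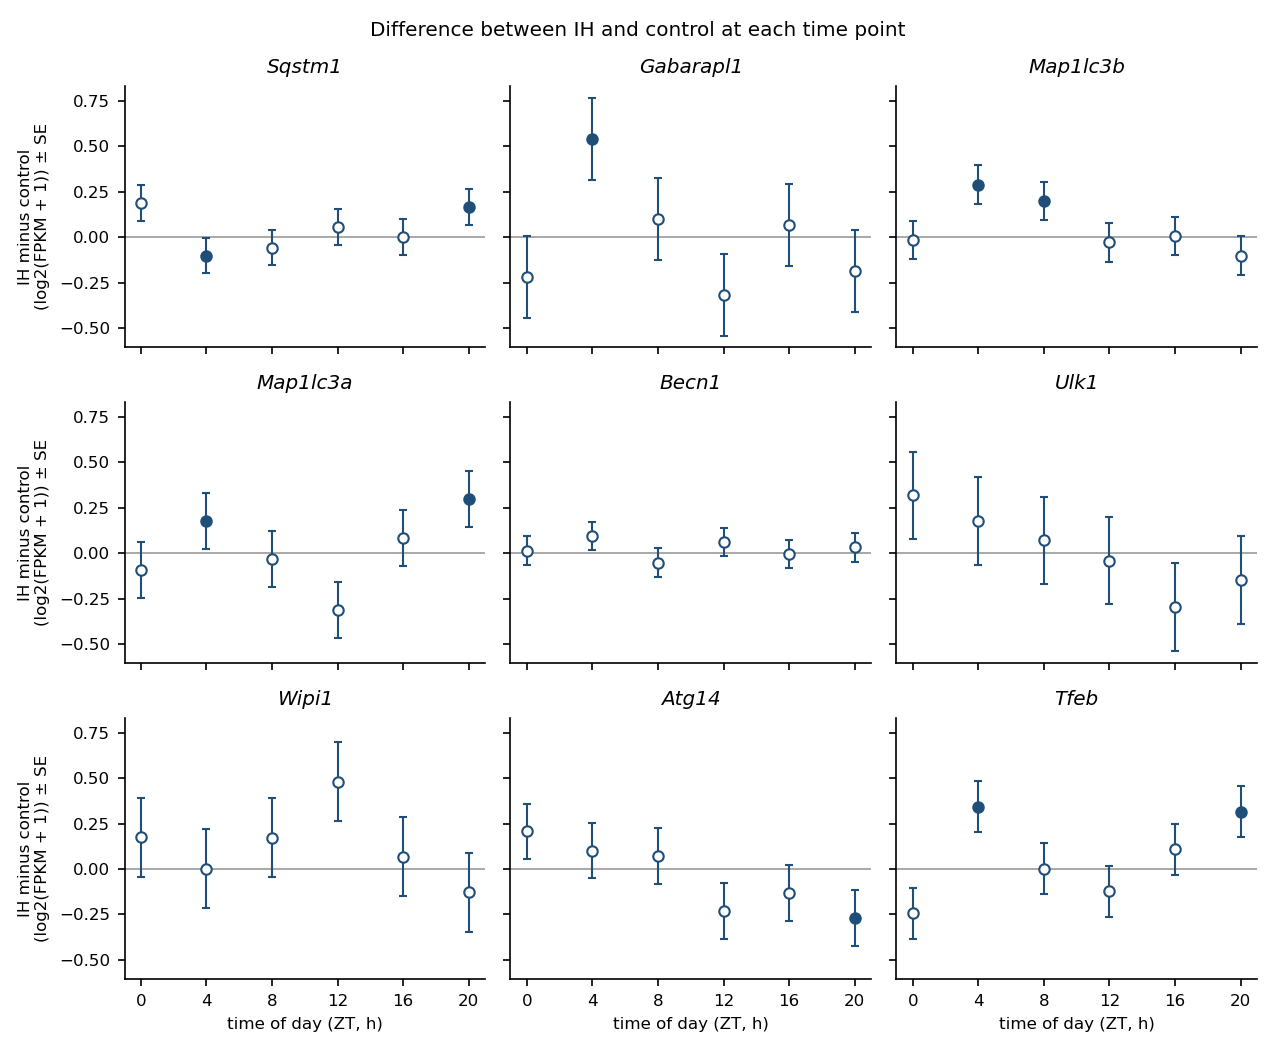
Difference between IH and control on the log2(FPKM + 1) scale with SE at each time point (ZT, h), for each member. Filled circles mark time points at which the 3 IH and the 3 control mice did not overlap. At ZT4, Gabarapl1 (0.54), Tfeb (0.34), Map1lc3b (0.29) and Map1lc3a (0.18) were separated above 0 and Sqstm1 (-0.10) below, Ulk1 (0.18) overlapped, and Becn1 stayed within 0.10 of 0 at every time point.

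The other genes of the pathway gave a background for the members. Of 100 further genes of autophagy and the lysosome, 25 were rhythmic in control (20.0% of all genes), 57 in IH (39.9%) and 20 in both (15.5%). Over the whole day 0 of them passed the level test (at an unadjusted P under 0.05, 6 were higher and 2 lower, against 1116 and 309 of all genes), and at ZT4 and ZT8 11 were higher in IH (6.05% of all genes) and 1 lower (1.93%). The median difference of the 100 genes at ZT4 and ZT8 was 0.05. Beside the same shares of all genes, the cargo receptors stood at 11 of 12 rhythmic in IH and 4 of 12 in control, the lysosome genes at 11 of 21 and 5 of 21, and the ATG8 conjugation genes at 4 of 11 and 2 of 11. The 3 cargo receptors higher in IH at ZT4 and ZT8 were Bnip3, a mitophagy receptor (0.65 ± 0.11, adjusted p = 0.014), Retreg1, a receptor of the endoplasmic reticulum (0.39 ± 0.09, adjusted p = 0.026), and Calcoco1 (0.35 ± 0.09, adjusted p = 0.038). The 4 lysosome genes were Npc1, a cholesterol exporter (0.49 ± 0.09), Neu1, a sialidase (0.26 ± 0.06), Mcoln1, a calcium channel (0.24 ± 0.06), and Ctsa, a carboxypeptidase (0.23 ± 0.05), with adjusted p of 0.015 to 0.031. Of the regulators of mTORC1, the kinase that restrains ULK1 when nutrients are plentiful, Flcn was 0.51 ± 0.07 higher (adjusted p = 0.0065), Fnip2, its partner, 0.60 ± 0.12 higher (adjusted p = 0.021) and Rragc 0.23 ± 0.06 higher (adjusted p = 0.043). Tecpr1, which acts at the fusion with lysosomes, was 0.15 ± 0.04 higher (adjusted p = 0.038). Tfe3, a relative of Tfeb, was the 1 gene lower in IH, by 0.22 on the log2 scale (adjusted p = 0.037). The calls of these list genes at ZT4 and ZT8 are given for the main scaling only. Over all genes the split of such calls changed with the scaling, as given above, and whether each list gene keeps its call is not given here. Among the 20 genes rhythmic in both exposures, those with the smallest P included Bnip3, Mtor, Mitf, Atg2a, Ddit4, Fundc1, Vps18, Pik3r4 and Gla. Atg2a, the lipid transfer protein that works with WIPI proteins, peaked at ZT5.33 in control and ZT5.96 in IH, near Wipi1.

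Over the 12 group means, the genes outside the lists whose course was most like a member's were Casp6 (Pearson's r = 0.982) and Rnf167 (0.979) for Gabarapl1, Mms19 (0.978) and Ppp1cc (0.968) for Map1lc3b, and Rnf138 (0.968) and Lrrc29 (0.966) for Ulk1, among 9668 genes. For Wipi1 they were Fam76b (0.967) and Pabpc1 (0.939), for Atg14 Slc38a2 (0.954) and Tnfsf12 (0.934), and for Sqstm1 Smo (0.963) and Gsr (0.961). For Becn1 they were Yaf2 (0.969) and Ncl (0.945), for Tfeb Epn1 (0.948) and Syngr2 (0.914), and for Map1lc3a Bag1 (0.909) and Rpusd3 (0.908). Among the members, Ulk1 correlated with Wipi1 (r = 0.911), Map1lc3b (0.904), Atg14 (0.893) and Gabarapl1 (0.869), and Sqstm1 with Becn1 by -0.765 and with Tfeb by -0.704. All 12 points come from the same libraries, and the genes share those libraries, so these are descriptions. Without control ZT12 replicate 2, Gsr fell to rank 139 for Sqstm1 and Tnfsf12 to rank 75 for Atg14.

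Exons of 5 members overlap those of a gene on the opposite strand (Atg14, Becn1, Gabarapl1, Map1lc3b and Sqstm1). The library kit marks strand, but whether the counting used it is not given in the sources used here, so reads of these partners cannot be told apart from the members' own. The ATG8 genes are related in sequence, and stretches they share could be split by the counting.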

How the data were processed

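Liver RNA of 36 mice was analysed. Per the labels, the authors aligned paired reads of 100 bases with TopHat2 2.1.1 to mm10 and the deposited FPKM came from Cufflinks 2.2.1. The annotation is not given in the sources used here. Values came as 1 table per exposure. The exposure of a table was taken from the table's name and the columns from the sample descriptions, which both exposures share. Symbols on more than 1 row (280) were left out.

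Tests used limma 3.58.1 in R 4.3.3 on log2(FPKM + 1), with an intensity trend, for genes averaging 0.1 FPKM or more, adjusted by Benjamini-Hochberg over all genes. The unit is not a count, so no count test was run. Rhythm was called at a nominal P of 0.01, as the study did with another test. The tests were tested on simulated data. Members, gene lists, motifs and tests were chosen with earlier results of these data known. Named genes were all members, list genes past a level test (at most 15), the 10 list genes most rhythmic in both exposures, and 2 genes most like each member. A gene that falls under this rule is not reported here. Same-numbered mice were not paired: residuals correlated by 0.054 on average and over 0.1 in 6 of 18 pairs. Alternatives were other scalings, pseudocounts, filters, rhythm tests, single time points, a replicate block, and leaving out each library or the 3 with high Saa1. Gene coordinates are from GENCODE vM21. Plots used matplotlib 3.10.9 (Python 3.11.15).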

Additional observations from a re-analysis of the deposited data

Results flagged for a closer look

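Sqstm1 was the 1 member with a complete separation of the exposures in opposite directions at different time points, a pattern that 13.0% of all genes tested showed. At ZT4 all 3 IH mice lay below all 3 control mice, with a log2 difference of -0.10. This separation was close to a tie, with 219.4 FPKM in the highest IH mouse and 219.6 in the lowest control mouse. At ZT20 all 3 IH mice lay above all 3 control mice, with a difference of 0.17. Neither passed the test (limma, adjusted p = 0.63 and 1), and the difference between these time points was not tested on its own. The interaction of exposure with the 24 h cosine gave an adjusted p of 0.92 for Sqstm1.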

How the results depend on the processing

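The counts of members called kept their main value or stayed within 1.5 times of it except as follows. The 3 members rhythmic in control became 5 with median-of-ratios scaling (adding Becn1 and Tfeb) and 5 without the 3 libraries with high Saa1 (adding Becn1 and Wipi1), and ranged from 3 to 5 when each library was left out, with 5 without control ZT12 replicate 2 (Becn1 and Wipi1). The 6 members rhythmic in IH were called in each of the 18 fits that left out 1 IH library. The 1 member called at ZT4 and ZT8 (Map1lc3b, higher) became 2 with quantile normalization, where Sqstm1 was called lower, by 0.17 (adjusted p = 0.035), and 0 at ZT8 alone, and ranged from 0 to 1 with each library left out. At ZT4 alone the 1 member called was Tfeb, and Map1lc3b had an adjusted p of 0.088. The 0 pairs called at single time points became 2 without the libraries with high Saa1 (Map1lc3b and Tfeb at ZT4), 1 with each time point fitted alone (Tfeb at ZT4), and ranged from 0 to 1 with each library left out: Wipi1 at ZT12 was called without control ZT12 replicate 1 and Map1lc3a at ZT12 without control ZT12 replicate 3. With a replicate block, 4 members were rhythmic in control (adding Wipi1, P = 0.0094, n = 18 libraries), 6 in IH and 1 was higher at ZT4 and ZT8, and no other call changed. The cause of these changes was not tested. The depth was estimated, and values carry 3 mice per group.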
